A study of Mus musculus with 6 samples.

Results

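Cortical and other forebrain circuits are held in check by GABAergic neurons, and the genes that identify them were examined here in the mouse brain after a short HFD. The set holds 10 genes, all of which were found among the 23282 gene entries of each count table, by gene symbol. They are the glutamate decarboxylases Gad1 and Gad2, the neuropeptide precursors Sst, Vip, Cck and Tac1, the calcium-binding proteins Pvalb, Calb1 and Calb2, and the extracellular glycoprotein gene Reln. All mice were wild-type C57BL/6J males, 8 to 10 weeks old, and were fed a normal chow diet (NCD, 3 libraries) or a high-fat diet with 60 kcal% fat (HFD, 3 libraries) for 10 days. RNA came from 1 forebrain hemisphere after the olfactory bulbs and the cerebellum had been removed, so each library mixes cortex, hippocampus, striatum and deeper regions. The labels do not say that each library is a separate mouse, and the p-values measure the spread between these libraries. In such bulk tissue, fewer cells of a type and less RNA per cell cannot be told apart.

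Inhibitory interneurons make GABA from glutamate with 2 decarboxylase enzymes and release it together with peptides that differ from one class to the next. The main cortical classes are told apart by parvalbumin, by somatostatin, and by vasoactive intestinal peptide or reelin, and calbindin and calretinin mark further subsets. None of the 10 genes belongs to interneurons alone. Gad1 and Gad2 are also made by the projection neurons of the striatum, Tac1 by striatal neurons of the direct pathway, and Cck by many pyramidal and thalamic neurons. Calb1 and Pvalb are also strong in cerebellar Purkinje cells, and Calb2 in parts of the thalamus, the hypothalamus and the olfactory bulb.

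Total counts ranged from 6842785 to 9689372 per library, and a count of 3 corresponded to between 0.316 and 0.432 CPM (counts per unit of library size, scaled between libraries with the TMM method). All 10 genes passed the filter on low counts, which kept 13771 entries, and their counts ranged from 141 for Vip to 5458 for Cck. Differences between the diets were tested with edgeR's quasi-likelihood test over all 13771 entries with Benjamini-Hochberg adjustment, and the log2 fold changes below are HFD over NCD. HFD replicate 3 stood apart from the other libraries. For 53.4% of all entries it held a CPM outside the range of the other 5 libraries, against between 22.5% and 43% for each of the others, so the fold changes are also given without it.

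No difference between the diets after 10 days, in the GABA enzymes, the peptides, the calcium-binding proteins or reelin, was larger than the spread between libraries. Of the 10 genes, 0 had an unadjusted p under 0.05, where 3.68% of all entries tested did, and 0 had an adjusted p under 0.05, where 0% of all entries did. DESeq2 also called 0 of the 10 at either threshold, with 2.72% of all entries called before adjustment and 0.0145% after it. In 0 of the 10 genes did the HFD libraries all lie on one side of the NCD libraries, where 8.81% of all entries were separated in this way. With HFD replicate 3 left out, 0 of the 10 had an unadjusted p under 0.05 (3.17% of all entries), and the same held with NCD replicate 2 left out (4.11% of all entries). None reached a 1.5-fold change with an unadjusted p under 0.05, which 1.28% of all entries did. The adjusted p was 0.979 for each of the 10 genes. Log2 fold changes ran from -0.37 for Calb2 to 0.28 for Pvalb, with 6 genes above 0, where 49.4% of all entries were, and 4 below. Their median was 0.07, against -0.0025 over all entries tested. The 95% interval lay within 1.5-fold in either direction for 7 genes and reached past it for Pvalb, Calb2 and Reln.

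**Figure D1:**
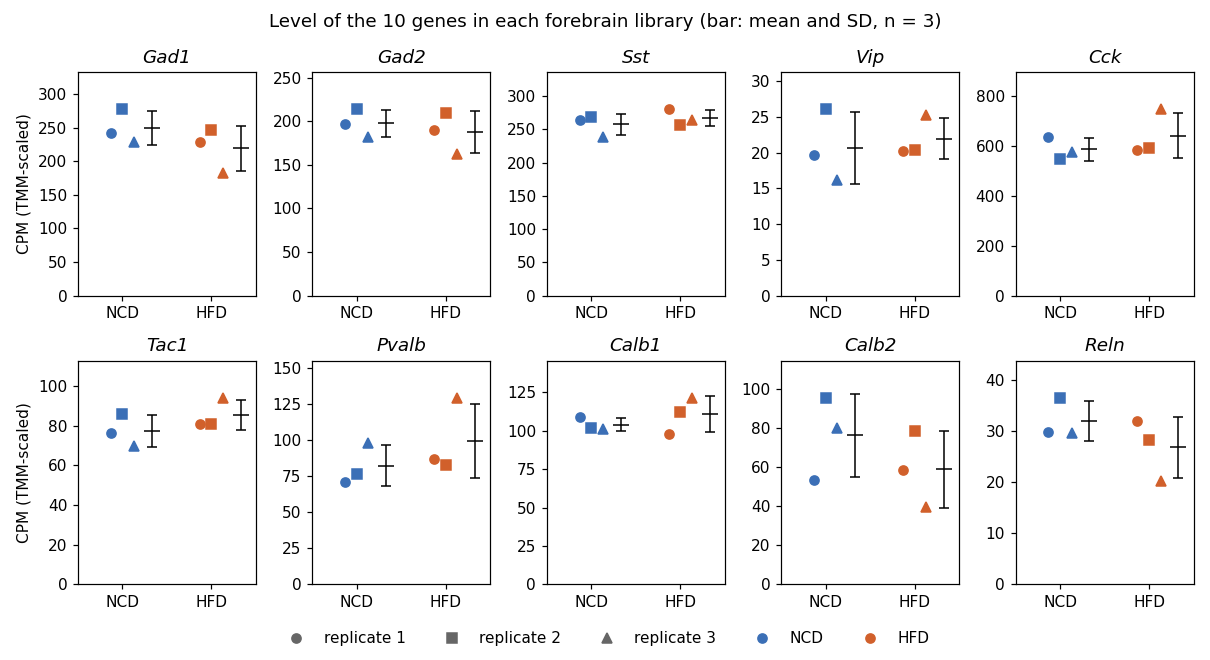
Level of each of the 10 genes in CPM (vertical axes, each from 0), with 1 point per library, the NCD in blue and the HFD in orange, and the replicate number by symbol; bars give the mean and SD of 3 libraries. The diets overlapped for every gene, and HFD replicate 3 (orange triangle) was the lowest library for Gad1, Gad2, Calb2 and Reln and the highest for Cck, Tac1, Pvalb and Calb1.

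Gad1 encodes the decarboxylase GAD67, which supplies most of the GABA of the cell body, and is found at 70553072 to 70602014 of chromosome 2 (GRCm38). It had 242, 278 and 229 CPM in NCD replicates 1, 2 and 3 and 229, 246 and 182 CPM in HFD replicates 1, 2 and 3. HFD replicates 1 and 2 lay within the range of the NCD libraries, and only HFD replicate 3 was below it. NCD libraries averaged 249 ± 25.2 CPM (SD, n = 3) and HFD libraries 219 ± 33.1 CPM (SD, n = 3), and the log2 fold change was -0.19 (standard error, SE, 0.12, unadjusted p = 0.146 in edgeR's quasi-likelihood test). The 95% interval of the fold change ran from 0.735 to 1.05. Leaving out HFD replicate 3 brought the log2 value to -0.07.

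Gad2 encodes GAD65, the form that sits at synaptic terminals, and lies elsewhere on chromosome 2, from 22622205 to 22693874. Its level was 197, 214 and 182 CPM under NCD and 190, 210 and 162 CPM under HFD, again with the lowest value in HFD replicate 3. The log2 fold change was -0.07 (SE 0.12, unadjusted p = 0.527 in the same test), and without HFD replicate 3 it turned to 0.02. Gad1 and Gad2 had similar patterns over the libraries. After centring on each gene's mean, their log2 CPM differed by 0.0567 on average over the 6 libraries, the smallest difference among the 45 pairs of the 10 genes.

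The peptide genes had fold changes close to 0. Sst, on chromosome 16 from 23889573 to 23890958, encodes somatostatin, the inhibitory peptide of interneurons that target dendrites. It had 264, 269 and 239 CPM under NCD and 281, 257 and 264 CPM under HFD. The highest library was only 1.17-fold above the lowest, the narrowest range of the 10 genes, and the log2 fold change was 0.05 (SE 0.10, unadjusted p = 0.606). The 95% interval of the fold change, from 0.895 to 1.20, was the narrowest of the 10 genes on the log2 scale. Sst was at 0.06 without HFD replicate 3.

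Vip encodes vasoactive intestinal peptide, made by interneurons that inhibit other interneurons, and lies on chromosome 10 from 5639218 to 5647617. Its counts lay between 141 and 242. It had 19.7, 26.1 and 16.2 CPM under NCD and 20.3, 20.3 and 25.3 CPM under HFD, so that all 3 HFD values lay between the extremes of the NCD. Its log2 fold change of 0.08 (SE 0.18, unadjusted p = 0.638) changed sign when HFD replicate 3 was left out, to -0.03, and when NCD replicate 3 was left out, to -0.07. The CV between the NCD libraries was 24.2%, against 7.35% from counting alone.

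Cck encodes cholecystokinin, carried by basket cells that express cannabinoid receptors and by many excitatory neurons. It lies on chromosome 9 from 121489824 to 121495694. It had 636, 548 and 575 CPM under NCD and 586, 592 and 748 CPM under HFD. HFD replicates 1 and 2 lay inside the NCD range and HFD replicate 3 above it, and the log2 fold change of 0.13 (SE 0.11, unadjusted p = 0.255) fell to 0.0069 without that library. Tac1, the precursor of substance P and neurokinin A, lies on chromosome 6 from 7554879 to 7565834. It had 76.2, 85.9 and 69.6 CPM under NCD and 81.0, 80.9 and 94.0 CPM under HFD. All 3 HFD libraries were above the NCD mean of 77.2 CPM, but NCD replicate 2 lay above HFD replicates 1 and 2, and the log2 fold change was 0.14 (SE 0.12, unadjusted p = 0.232), or 0.07 without HFD replicate 3.

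Transcription of several neuropeptide genes is raised by cAMP through the factor CREB, which binds the cAMP response element TGACGTCA or its half-site TGACG, and the somatostatin promoter is the classic example. The windows around the start sites of 8 of the 10 genes, from RefSeq on GRCm38.p6, were searched for both on either strand, from 250 bases before to 50 bases after the start. Calb1 and Calb2 were not matched. The full element was found for Sst alone among these genes, and is present in 1.79% of all 32851 windows. The half-site was found in all 4 peptide genes and in Gad2, and in 20.8% of all windows. These letters are not in the windows of Gad1, Pvalb and Reln. The 30 bases around the sites are shown because the peptide genes share them. They are written 5′ to 3′ on the strand of the gene, with the half-site or its reverse complement, CGTCA, in capitals (both overlap in the full element of Sst). The Sst sequence is from chr16:23890875-23890904, Vip from chr10:5639127-5639156, Cck from chr9:121495724-121495753, Tac1 from chr6:7555006-7555035 and Gad2 from chr2:22622282-22622311, with Sst and Cck on the minus strand.
Sst: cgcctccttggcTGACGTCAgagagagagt
Vip: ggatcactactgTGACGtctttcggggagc
Cck: cctgctggactgCGTCAgcactgggtaaac
Tac1: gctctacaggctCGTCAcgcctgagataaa
Gad2: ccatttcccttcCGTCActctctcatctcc
The capitals begin 48 bases before the start site in Sst, 79 in Vip, 47 in Cck, 43 in Tac1 and 33 in Gad2. The starts are those of RefSeq. The gene ranges given here span all GENCODE transcripts, and those of Sst, Tac1 and Gad2 begin upstream of these sites and so include them. Tac1 holds another half-site 197 bases before its start. These are matches of letters, and binding was not measured in this study. The 4 peptide genes with a site had log2 fold changes between 0.05 and 0.14 and Gad2 -0.07, and 0 of the 5 passed the test.

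Of the calcium-binding proteins, Pvalb and Calb2 varied more between libraries than Calb1 did. Pvalb encodes parvalbumin, the fast calcium buffer of basket and chandelier cells, and lies on chromosome 15 from 78191114 to 78206400. It had 71.2, 76.7 and 98.1 CPM under NCD and 86.5, 82.7 and 129 CPM under HFD. All 3 HFD libraries were above the NCD mean of 82.0 CPM, while NCD replicate 3 lay above HFD replicates 1 and 2. This was the highest fold change of the set, 0.28 on the log2 scale (SE 0.16, unadjusted p = 0.102), and the 95% interval of the fold change ran from 0.959 to 1.53. HFD replicate 3 held 1.53-fold the mean of the other HFD libraries, and with that library left out the log2 value was 0.04. In edgeR's quasi-likelihood test the unadjusted p of Pvalb was 0.0253 without NCD replicate 3 (log2 fold change 0.43), where 2.95% of all entries had a p under 0.05. It was 0.0388 without HFD replicate 2 (log2 fold change 0.39), where 4.03% of all entries did, and 0.0284 in the fit without a filter, where 4.76% did. Other alternatives raised the unadjusted p of Pvalb, to 0.735 in the same test without HFD replicate 3 and to 0.244 in limma after quantile normalization. The adjusted p of Pvalb was at least 0.839 under all alternatives run.

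Calb1 encodes calbindin-D28k, a buffer found in dendrite-targeting interneurons and in striatal and hippocampal neurons, and lies on chromosome 4 from 15881264 to 15908064. It had 109, 102 and 101 CPM under NCD and 98.0, 112 and 121 CPM under HFD. The NCD libraries lay inside the range of the HFD libraries, and the log2 fold change was 0.09 (SE 0.11, unadjusted p = 0.429), or 0.02 without HFD replicate 3.

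Calb2 encodes calretinin, which marks interneurons that contact other interneurons, and lies on chromosome 8 from 110137502 to 110168210. It had 53.4, 95.6 and 80.4 CPM under NCD and 58.4, 78.8 and 39.5 CPM under HFD. NCD replicate 1 was below HFD replicates 1 and 2, and the highest library held 2.42-fold the lowest, the widest range of the 10 genes. The log2 fold change of -0.37 was the lowest of the set (SE 0.21, unadjusted p = 0.0953), with a 95% interval of the fold change from 0.567 to 1.05. It was -0.15 without HFD replicate 3. In edgeR's quasi-likelihood test the unadjusted p of Calb2 was 0.00557 in the fit without a filter, 0.00876 without HFD replicate 2 (log2 fold change -0.65, past 1.5-fold) and 0.0138 without NCD replicate 1 (log2 fold change -0.57), where 3.5% of all entries had a p under 0.05. Other alternatives raised the unadjusted p of Calb2, to 0.298 in DESeq2 and 0.220 in limma after quantile normalization. In edgeR's quasi-likelihood test it rose to 0.225 with robust estimation and to 0.426 without NCD replicate 2. The adjusted p of Calb2 was at least 0.714 under all alternatives run.

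Reln encodes reelin, the secreted protein that guides neuronal layering in development and is made by neurogliaform and other interneurons in the adult. It lies on chromosome 5 from 21884454 to 22344702, and an exon of the antisense gene Gm10475 overlaps it. Whether the counting used strand is not given in the sources used here, so reads of the antisense gene could be part of its count. Reln had 29.9, 36.6 and 29.6 CPM under NCD and 32.0, 28.4 and 20.2 CPM under HFD. HFD replicate 1 lay inside the NCD range and the others below it. The log2 fold change was -0.25 (SE 0.16, unadjusted p = 0.14), and the 95% interval of the fold change ran from 0.66 to 1.07. When HFD replicate 1 was left out, where 5.46% of all entries had an unadjusted p under 0.05, Reln was at -0.39 on the log2 scale (unadjusted p = 0.0423, adjusted p = 0.839 in edgeR's quasi-likelihood test). When HFD replicate 3 was left out, it was at -0.09.

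**Figure D2:**
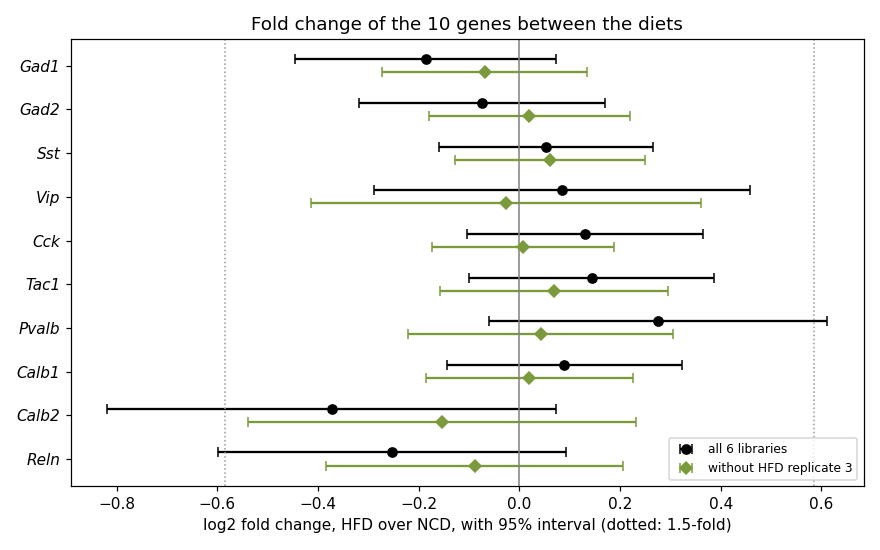
Log2 fold change of each gene, HFD over NCD (horizontal axis), with its 95% interval from edgeR's quasi-likelihood fit, for all 6 libraries (black) and without HFD replicate 3 (green); dotted lines mark 1.5-fold. Every interval included 0 in both fits, and Pvalb, Calb2 and Reln reached past 1.5-fold with all 6 libraries.

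The departures of the 10 genes from their means differed in size between the libraries. HFD replicate 3 lay outside the range of the other 5 libraries for 8 of the 10 genes, beside 53.4% of all entries. It was the lowest library for 4 genes (27.1% of all entries) and the highest for 4 (26.2% of all entries). In this library Calb2 was at 0.575-fold, Reln at 0.67-fold, Gad1 at 0.767-fold and Gad2 at 0.811-fold the mean of HFD replicates 1 and 2. Pvalb was at 1.53-fold, Cck at 1.27-fold, Vip at 1.25-fold, Tac1 at 1.16-fold and Calb1 at 1.15-fold the same mean, and Sst at 0.982-fold. Within this single library, 5 genes were thus above and 5 below the mean of the other HFD libraries. NCD replicate 2 lay outside the range of the others for 6 genes, beside 26% of all entries. It was the highest library for 5 of them, namely Gad1, Gad2, Vip, Calb2 and Reln, beside 13.4% of all entries. Without HFD replicate 3 the fold change was closer to 0 in 9 of the 10 genes, Sst being the exception. The median log2 fold change of the 10 genes was then 0.01. Leaving out a library that lies outside the range of the others tends to bring a fold change closer to 0. The share of all entries that moved in this way was not counted, so the count cannot set these genes apart.

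**Figure D3:**
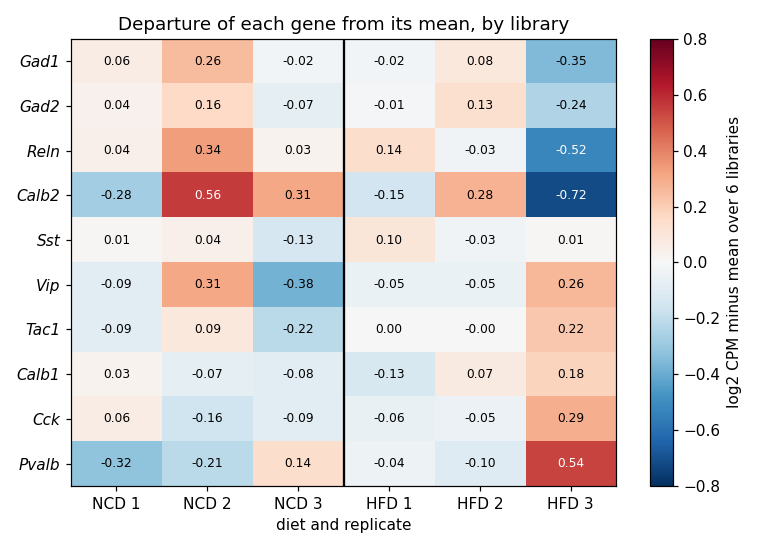
Log2 CPM of each gene minus its mean over the 6 libraries (colour and number in each cell), with the NCD libraries left of the line and the HFD libraries right of it. HFD replicate 3 ran from -0.72 for Calb2 to 0.54 for Pvalb, while the other HFD libraries stayed between -0.15 and 0.28.

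Spread between libraries exceeded counting error in all 10 genes on both diets. On the HFD the CV was lowest for Sst, at 4.5% where counting alone gives 2.2%, and highest for Calb2, at 33.4% where counting alone gives 4.61%. On the NCD it was lowest for Calb1, at 4.23% where counting gives 3.28%, and highest for Calb2, at 27.9% where counting gives 3.8%. The biological coefficient of variation fitted by edgeR had a median of 11.2% over the 10 genes and 12.5% over all entries tested.

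The balance between the interneuron genes was also compared within each library, as the count of each other gene over the summed count of Gad1 and Gad2, which does not depend on the scaling between libraries. Of the 8 ratios, 6 had a higher mean log2 ratio on the HFD and 2, those of Calb2 and Reln, a lower one. The shared denominator was lowest in HFD replicate 3, with Gad1 at 182 and Gad2 at 162 CPM. A gene of unchanged level therefore has a higher ratio there. Sst, for example, had a log2 fold change of 0.05 but a difference in the mean log2 ratio of 0.20. The share of all entries with a higher ratio was not counted. The exact permutation p over the 20 assignments of the libraries (two-sided) ran from 0.1 to 0.6, and 0.1 is the smallest p that 3 libraries against 3 allow. That smallest value was reached by Tac1, whose ratio was 0.174, 0.175 and 0.169 under NCD and 0.193, 0.177 and 0.273 under HFD. The diets did not overlap for Tac1, and 8.29% of all entries were separated when divided by the same sum. HFD replicate 2 was above NCD replicate 2 by a small margin only, and most of the difference came from HFD replicate 3. The mean log2 ratio of Tac1 was higher on the HFD by 0.29 with all libraries and by 0.10 without HFD replicate 3. With Gad2 alone as the denominator the exact permutation p was 0.3.

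Pvalb counts per GAD count showed the largest difference in the mean log2 ratio, 0.40, with 0.162, 0.156 and 0.238 under NCD and 0.206, 0.181 and 0.375 under HFD. The diets overlapped, and the exact permutation p was 0.4. The difference was 0.09 without HFD replicate 3. The ratio of Gad2 to Gad1, which was examined after its values were seen, was 0.813, 0.770 and 0.797 under NCD and 0.831, 0.853 and 0.891 under HFD. It did not overlap between the diets (exact permutation p = 0.1, difference in the mean log2 ratio 0.11), where 11.4% of all entries were separated when divided by Gad1. Without HFD replicate 3 the difference was 0.09.

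**Figure D4:**
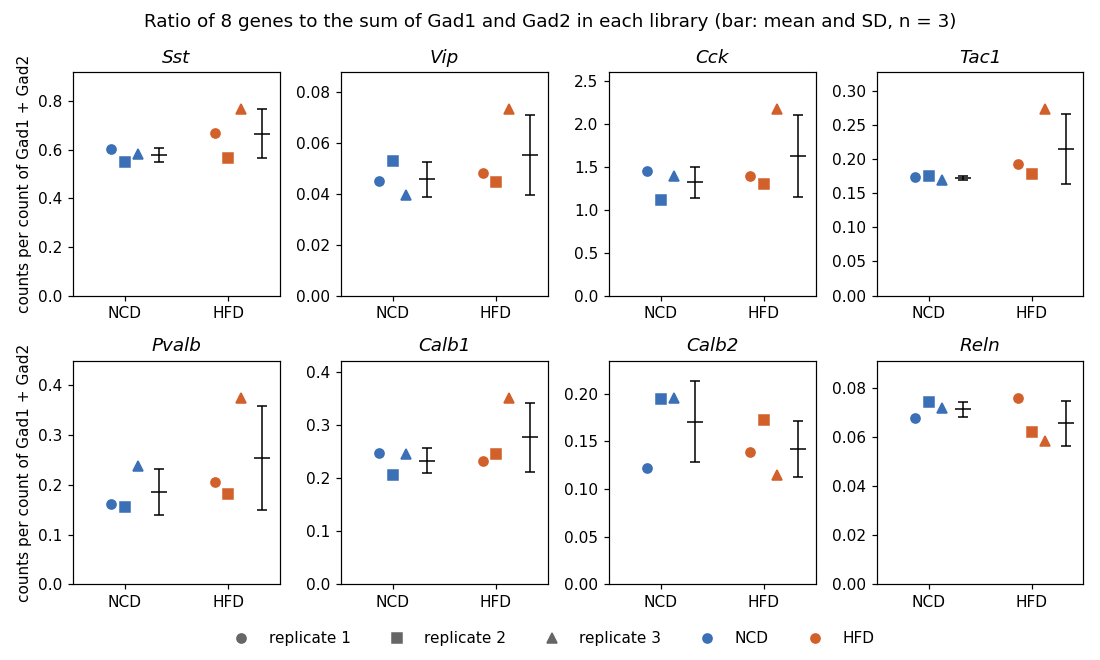
Count of each of 8 genes per count of Gad1 and Gad2 together (vertical axes, each from 0), with 1 point per library and bars for the mean and SD of 3 libraries. HFD replicate 3 (orange triangle) held the highest ratio for Sst, Vip, Cck, Tac1, Pvalb and Calb1 and the lowest for Calb2 and Reln. Gad1 and Gad2, the shared denominator, were both lowest in this library.

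Because neurons outside the interneuron classes also make these transcripts, markers of the regions concerned were set beside them. Calb2 had its higher and lower levels in the same libraries as the summed markers of the hypothalamus, thalamus and olfactory bulb. The hypothalamus list, of which 6 of 10 genes passed the filter, summed to between 69.6 and 112 CPM under NCD and to between 28.6 and 112 CPM under HFD. NCD replicates 2 and 3 and HFD replicate 2 held the 3 highest levels of Calb2, and also the 3 highest sums of the hypothalamus list (112, 93.7 and 112 CPM) and of the thalamus and habenula list (673, 712 and 677 CPM). They also held the 3 highest sums of the olfactory bulb list (88.5, 31.9 and 46.5 CPM). HFD replicate 3, lowest in Calb2, held the lowest sum of each list, at 28.6, 578 and 14.3 CPM. The thalamus and habenula sum was almost as low in NCD replicate 1, at 585 CPM. HFD replicate 3 was the lowest library for 5 of 6, 3 of 10 and 4 of 7 tested genes of these lists (27.1% of all entries). Ramp3 of the thalamus and habenula list was highest in HFD replicate 3, at 49.5 CPM against 31.2 to 43.1 CPM in the others. In this library the hypothalamic peptide gene Hcrt was at 0.962 CPM, where the other libraries had between 13.0 and 17.8 CPM. Pomc, the precursor of melanocortin peptides, went the other way, at 12.2 CPM in this library against 1.16 to 4.64 CPM in the others. The same 3 libraries were highest and HFD replicate 3 lowest when the most abundant gene of each list was left out. The part of these regions in the level of Calb2 was not tested.

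**Figure D5:**
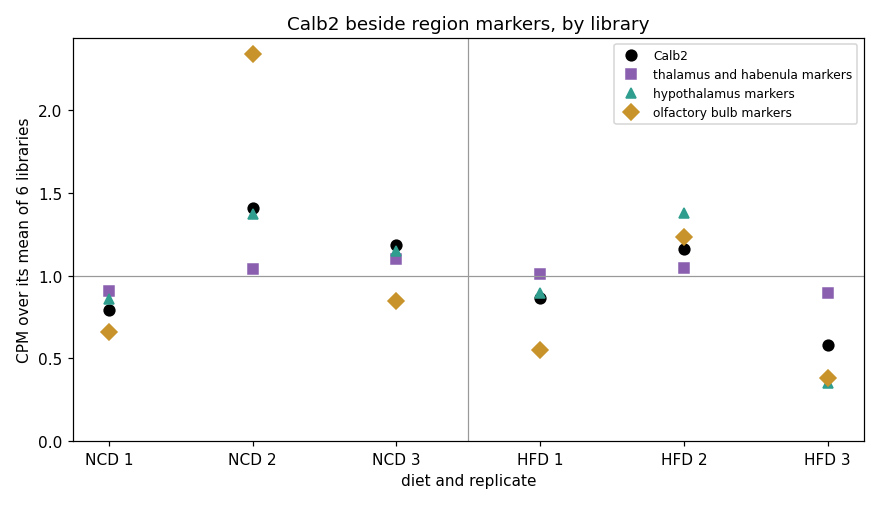
Calb2 and the summed CPM of 3 lists of region markers in each library, each divided by its own mean over the 6 libraries (vertical axis from 0). Calb2 (black) and the hypothalamus markers (green) were above their mean in NCD replicates 2 and 3 and HFD replicate 2 and lowest in HFD replicate 3.

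Tac1, Cck, Pvalb and Calb1 were highest in HFD replicate 3, and the lists of regions that also make them were not. The striatal list, of which 9 of 10 genes passed the filter, summed to between 1052 and 1162 CPM under NCD and between 1069 and 1122 CPM under HFD. HFD replicate 3, highest in Tac1, held 1093 CPM of it. Among these markers Drd2, the dopamine receptor of the indirect pathway, had a count of 1 in HFD replicate 2 and of 0 in the other libraries, so the striatal sum rests on the other genes. The excitatory neuron list of cortex and hippocampus, with 12 of 12 genes tested, was lowest in HFD replicate 3 at 2302 CPM, against 2559 to 2968 CPM in the other libraries, while Cck was highest there. That low sum came from Camk2a, at 1259 CPM against 1587 to 1905 CPM, and 5 of the 12 genes were lowest in HFD replicate 3. The other 11 genes summed to 1043 CPM in HFD replicate 3, within the 972 to 1132 CPM of the other libraries. The cerebellum list, with 6 of 10 genes tested, was also lowest in HFD replicate 3, at 373 CPM against 395 to 426 CPM, while Pvalb and Calb1 were highest there. Without Itpr1, its most abundant gene, it summed to 109 CPM in HFD replicate 3, and NCD replicate 3 was lowest at 105 CPM. Of its defining genes, Gabra6 had a count of 1 in HFD replicate 2 and of 0 elsewhere, while the Purkinje cell gene Pcp2 was present, at between 9.9 and 20.6 CPM, with 17.9 CPM in HFD replicate 3. The midbrain list, with 9 of 11 genes tested, summed to between 34.4 and 56.5 CPM under NCD and to between 17.3 and 42.5 CPM under HFD, with HFD replicate 3 lowest.

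The other genes of GABA handling cover vesicle loading, transport, breakdown and the GABA-B receptor. Of the 8 genes listed, all were tested, and 0 passed an unadjusted p of 0.05 in either direction (3.68% of all entries). All 8 had a log2 fold change below 0, where 49.4% of all entries were above 0. Their median was -0.14 against -0.0025 over all entries. HFD replicate 3 was the lowest library for 6 of the 8, where it was lowest for 27.1% of all entries. The vesicular GABA transporter Slc32a1, which loads the transmitter into vesicles, had 177, 166 and 173 CPM under NCD and 167, 173 and 125 CPM under HFD. Slc6a13, a transporter of the meninges and vessels, had the lowest log2 fold change, -0.47 (SE 0.26, unadjusted p = 0.0949). Slc6a13 was the only gene of the list with separate diets, where 8.81% of all entries were separated, at 6.17, 6.15 and 7.16 CPM under NCD and 5.61, 4.92 and 3.57 CPM under HFD. The median of the list was -0.03 without HFD replicate 3.

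Of 21 transcription factors listed for interneuron development and identity, with the activity-dependent Npas4 among them, 20 were tested. An unadjusted p of 0.05 was passed by 2, Npas4 being 1 of them, both lower on the HFD, where 1.98% of all entries were. Dlx1, which helps to specify GABAergic neurons, had 17.8, 33.2 and 19.6 CPM under NCD and 11.7, 21.6 and 16.2 CPM under HFD. The diets overlapped, NCD replicate 2 was far above the rest, and the log2 fold change was -0.50 (SE 0.24, unadjusted p = 0.0486). Dlx1 was highest in NCD replicate 2, then in HFD replicate 2, then in NCD replicate 3. The olfactory bulb list had its highest sums in the same order, at 88.5, 46.5 and 31.9 CPM. The lowest library was HFD replicate 1 for Dlx1 and HFD replicate 3 for that list. The part of the olfactory bulb in the level of Dlx1 was not tested. Npas4, an activity-dependent factor that regulates inhibitory synapses, had 1.60, 2.37 and 5.37 CPM under NCD and 1.87, 1.20 and 1.51 CPM under HFD, a log2 fold change of -1.05 (SE 0.47, unadjusted p = 0.0399). Most of the NCD mean came from NCD replicate 3. Both had an adjusted p of 0.979 in edgeR's quasi-likelihood test, and their unadjusted p was 0.0845 and 0.0755 without HFD replicate 3. The highest of the list was Npas1, at 0.35. The median of the 20 genes was -0.0033, with 10 above and 10 below 0.

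Among 28 other interneuron markers, 27 were tested and 0 passed an unadjusted p of 0.05. They include Npy, Nos1, Lamp5 and the potassium channels of fast-spiking cells. Log2 fold changes ran from -0.45 for Sncg to 0.66 for Ankrd55, with a median of -0.03. There were 9 above 0, where 49.4% of all entries were, and 18 below. HFD replicate 3 was the lowest library for 11 of the 27 (27.1% of all entries) and the highest for 7 (26.2% of all entries). Without that library the median was -0.0045. Erbb4, the neuregulin receptor of parvalbumin cells, was counted 2, 5 and 2 times in the NCD libraries and 7, 5 and 8 times in the HFD libraries, too few to pass the filter.

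On the receiving side, 11 of 13 receptor genes for somatostatin, VIP, cholecystokinin and tachykinins were tested. Adcyap1r1, the receptor of the VIP-related peptide PACAP, was the only one with an unadjusted p under 0.05, which 3.68% of all entries had. It had 150, 163 and 184 CPM under NCD and 143, 151 and 115 CPM under HFD, with a log2 fold change of -0.28 (SE 0.12, unadjusted p = 0.0363 and adjusted p = 0.979 in edgeR's quasi-likelihood test). The diets overlapped, since NCD replicate 1 lay below HFD replicate 2, and without HFD replicate 3 the unadjusted p was 0.106. The somatostatin receptor Sstr3, found on neuronal cilia, was separated between the diets, as 8.81% of all entries were, at 16.0, 18.2 and 18.1 CPM under NCD and 19.3, 19.9 and 20.5 CPM under HFD, the highest fold change of the list at 0.19 on the log2 scale (SE 0.15, unadjusted p = 0.221). Vipr2 was the lowest, at -0.39. Sstr4 had no count in any library, and Tacr2 at most 3.

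In the reelin pathway, 12 of 12 genes were tested, 0 passed an unadjusted p of 0.05, and the median log2 fold change was -0.08. There were 2 above 0, where 49.4% of all entries were, and 10 below. HFD replicate 3 was the lowest library for 8 of the 12 (27.1% of all entries) and the highest for 2 (26.2% of all entries). Without that library the median was -0.04. The reelin receptor Vldlr stayed between 84.8 and 93.3 CPM in all 6 libraries. The adaptor Dab1, which the receptors engage, had 142, 141 and 123 CPM under NCD and 141, 137 and 116 CPM under HFD. The signalling adaptor Crk was the highest, at 0.30 (SE 0.15, unadjusted p = 0.068), and the integrin gene Itga3 the lowest, at -0.32. Of 19 other calcium buffers and sensors, 17 were tested and 1 passed an unadjusted p of 0.05. This was Calr, the calcium-storing chaperone calreticulin of the endoplasmic reticulum, and it was higher on the HFD, where 1.71% of all entries were. Calr had 293, 278 and 275 CPM under NCD and 305, 337 and 345 CPM under HFD, with no overlap, where 8.81% of all entries were separated. Its log2 fold change was 0.22 (SE 0.10, unadjusted p = 0.0377 and adjusted p = 0.979 in edgeR's quasi-likelihood test). Calr stayed at 0.19 on the log2 scale without HFD replicate 3, with 0.0407 as its unadjusted p in the same test. In that fit 3.17% of all entries had an unadjusted p under 0.05. Ncs1 was the lowest of this list, at -0.12, and the median was 0.04.

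For the 2 genes with the widest range over the libraries, the entries of most similar pattern were listed by the mean absolute difference of centred log2 CPM over the 6 libraries. For Calb2 these were Fam212a, at 0.0526, Pde4c, at 0.102, and Hexim2, at 0.109. Fam212a lay between 0.687 and 1.73 CPM and Pde4c between 0.687 and 1.83 CPM, so both rest on few counts. For Pvalb they were 2810459M11Rik, at 0.0451, Igbp1, at 0.0485, and Ppil1, at 0.0518. Each of these was highest in HFD replicate 3, as Pvalb was, and Igbp1 had 43.0 CPM there against 26.4 to 33.1 CPM in the other libraries. They were picked from 13752 entries with a count in every library, and no other interneuron gene was among them.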

How the data were processed

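QuantSeq 3′ libraries from 3 NCD and 3 HFD forebrain hemispheres were read as single-end 75 bp reads. After trimming and alignment to mm10 with Bowtie2, the authors took counts per gene from unique and multiple alignments with Bedtools and deposited these counts without normalization. The quantile normalization named in their methods is not part of the deposited counts. Annotation, strand use and tool versions are not given in the sources used here. Reads lie near the 3′ ends, so a gene whose annotated end is not the one used can be missed, and levels were compared within genes only.

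The counts of 8061348, 8979317 and 9689372 (NCD) and 6842785, 9119597 and 7603293 (HFD) per library were tested with edgeR 4.0.16 under R 4.3.3 (filterByExpr with a minimum count of 10, TMM, glmQLFit and glmQLFTest), limma 3.58.1 and DESeq2 1.42.0, and with Python 3.11.15, pandas 2.3.3, numpy 2.4.6, scipy 1.17.1 and matplotlib 3.10.9. Standard errors are the log2 fold change over the square root of the F statistic. Replicates differed by more than sampling noise (chi-square over its degrees of freedom, 3.47 to 16). Floors and counting errors cover counting only. The test was checked on simulated counts. The 10 genes and all lists were chosen with earlier results of these data known. Besides the 10 genes, the text names list members with an unadjusted p under 0.05, the highest and lowest of each list, and others chosen after their values were seen. A listed gene that this rule names is not reported here. Alternatives were DESeq2, other scalings, quantile normalization with limma, other filters, a replicate block, robust estimation, leaving out entries over 2% of a library, and leaving out each library in turn. Positions are from GENCODE vM21 (GRCm38, the same assembly as mm10).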

Additional observations from a re-analysis of the deposited data

How the results depend on the processing

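Under the 16 alternatives, 0 of the 10 genes had an adjusted p under 0.05. The count with an unadjusted p under 0.05, 0 in the main fit, was 2 without a filter (Pvalb and Calb2), 1 with a replicate block (Pvalb, where 2.69% of all entries passed), and from 0 to 2 with 1 library left out. The count past 1.5-fold as well was from 0 to 1, the 1 being Calb2 without HFD replicate 2, where 1.63% of all entries were past both. The count with no overlap between the diets was from 0 to 2 with 1 library left out, namely Reln and Calb1 without HFD replicate 1, Cck and Calb2 without NCD replicate 1, Vip and Tac1 without NCD replicate 2, and Pvalb without NCD replicate 3. In these fits between 18% and 20.4% of all entries did not overlap. The median log2 fold change of the 10 genes lay between -0.0322, without NCD replicate 3, and 0.0804, without NCD replicate 2. With 1 library left out, the log2 fold change ran from -0.164 to 0.0197 for Gad2, above 0 without HFD replicate 3, and from -0.0664 to 0.290 for Vip, below 0 without NCD replicate 3 and without HFD replicate 3 (-0.0267). No other gene turned its sign under the alternatives run. The causes were not tested. The 8 ratios to Gad1 and Gad2, which share their denominator, kept their sign under all of theirs. Deviations of same-numbered libraries correlated between -0.06 and 0.03, and 2 of 6 libraries correlated best with their own number. In the authors' read quality reports, replicate 3 had the highest GC content and replicate 2 the lowest on both diets. Whether same-numbered libraries were prepared or sequenced together is not given, and these correlations cannot decide it.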

Other observations

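Beyond the interneuron genes, the midbrain list held more genes with a lower call than any other list examined. Of 9 midbrain genes tested, 4 had an unadjusted p under 0.05 and were lower on the HFD (1.98% of all entries), and 0 had an adjusted p under 0.05 (0.979 each in edgeR's quasi-likelihood test). The serotonin transporter gene Slc6a4 had 1.36, 3.88 and 5.69 CPM on the NCD and 2.16, 0.328 and 0.137 CPM on the HFD, and Tph2, which makes serotonin, had 1.36, 3.67 and 5.06 CPM and 1.73, 1.20 and 0.962 CPM. Th, the rate-limiting enzyme of dopamine synthesis, had 12.3, 20.4 and 15.3 CPM on the NCD and 8.64, 14.0 and 3.57 CPM on the HFD. The fourth, Foxa2, was at 1.48, 1.51 and 1.79 CPM with NCD and 0.576, 1.09 and 0 CPM with HFD, the only midbrain gene with separate diets, where 8.81% of all entries were separated. Apart from Th these rest on few reads. The counts in HFD replicates 1, 2 and 3 were 15, 3 and 1 for Slc6a4, 12, 11 and 7 for Tph2, and 4, 10 and 0 for Foxa2. Of the 9 genes, 7 had a log2 fold change below 0 and 2 above it, Pax7 (0.54) and Gata3 (0.18). HFD replicate 3 was the lowest library for 7 of the 9 (27.1% of all entries). Slc6a3 of the same list had 7.16, 7.34 and 6.32 CPM on the NCD and 8.35, 7.21 and 3.30 CPM on the HFD. Its log2 fold change was -0.14, or 0.16 without HFD replicate 3. Without HFD replicate 3 the unadjusted p in the same test was 0.0265 for Slc6a4, 0.0396 for Tph2, 0.0567 for Th and 0.156 for Foxa2. In that fit 3.17% of all entries had an unadjusted p under 0.05. In the olfactory bulb list, Eomes and again Th passed an unadjusted p of 0.05 and were lower on the HFD. Eomes had 14.7 CPM in NCD replicate 2, against at most 4.04 CPM elsewhere.

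Median log2 fold changes were -0.42 for the hypothalamus list, -0.43 for midbrain, -0.84 for olfactory bulb, -0.03 for thalamus and habenula, 0.0062 for cerebellum, -0.06 for striatal projection neurons and -0.04 for excitatory neurons. Without HFD replicate 3 they were 0.02 for hypothalamus, -0.23 for midbrain, -0.48 for olfactory bulb and 0.31 for endothelium. For general cell types with all libraries they were 0.04 for neurons, where Syp had a log2 fold change of 0.28 (unadjusted p = 0.036), -0.03 for astrocytes, 0.03 for oligodendrocytes, 0.11 for microglia and 0.19 for endothelium, with 0 genes at an adjusted p under 0.05 in each.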
